A study of Homo sapiens with 8 samples.

Results

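Enhancers were examined at 10 genes of TGF-beta and activin signalling in 4 medulloblastoma lines: the ligand genes *TGFB1*, *TGFB2*, *TGFB3* and *INHBA*, the receptor genes *TGFBR1*, *TGFBR2* and *ACVR2A*, the signal transducer *SMAD3*, and the inhibitors *SMAD7* and *SKIL*. They were chosen by name, with earlier results of these data known, as 10 of 19962 protein-coding genes. An enhancer was assigned to a gene when it overlapped the gene body or lay within 50 kb of the start site, which gave 78 of the 88550 enhancers in the tables of the 4 lines. The 78 comprised 11 of 26072 enhancers in MB002, 30 of 26317 in D425, 13 of 15286 in HD-MB03 and 24 of 20875 in UW228.

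H3K27Ac, a histone acetylation found at active enhancers and promoters, was measured by ChIP-seq with 1 H3K27Ac and 1 input library per line. MB002, D425 and HD-MB03 were Group 3 medulloblastoma (G3-MB) lines, and UW228 was labelled as the Sonic hedgehog (SHH) subtype. MB002 and HD-MB03 grew in serum-free Tumor Stem Media with EGF, basic FGF and LIF, whereas D425 and UW228 grew in DMEM with 10% fetal bovine serum. The medium of UW228 comes from the study's general culture methods and is not in its labels. No line received a drug or a genetic change, and each line had 1 library of each kind. UW228 was the single SHH line, D425 the single G3-MB line in serum, so what belongs to a subtype or a medium cannot be told apart from what belongs to one line.

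TGF-beta and activin dimers bring together type II and type I receptor kinases, which phosphorylate SMAD2 and SMAD3. These then enter the nucleus with SMAD4 and bind short DNA elements, often beside AP-1 and other factors, while SMAD7 blocks the receptors and SnoN, the product of *SKIL*, represses SMAD complexes. *SMAD7* and *SKIL* are themselves textbook targets of the pathway, which closes a negative feedback loop. In cultured cells, serum is a known source of TGF-beta.

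The signal of an enhancer was its deposited H3K27Ac value minus its input value, in reads scaled to library depth and summed over the region. The authors ranked the enhancers of each line by this signal and called those above a cutoff super-enhancers (SEs) and the rest typical enhancers (TEs). There were 363, 431, 302 and 753 SEs in MB002, D425, HD-MB03 and UW228, above signals of 32353, 26206, 22917 and 24467. By the study's methods, peaks close to start sites were left out, yet 4.72% to 6.89% of the deposited regions of a line overlapped a start site, among them a single peak at *TGFB1* in D425. A gene without an assigned enhancer may still carry H3K27Ac that the tables do not list. With 1 library per line no difference could be set against a spread between replicates, no test was made, and every value below is a description of these libraries. An exact permutation test of 3 lines against 1 cannot give a p below 0.25. In a bulk culture, the share of cells with the mark and the amount of mark per cell cannot be told apart.

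The labels were set beside marker genes. As a baseline, 62% of all protein-coding genes had an enhancer for UW228, and 5% had a SE. For MB002 these shares were 70.9% and 3.36%, for D425 73.1% and 4.35%, and for HD-MB03 58.4% and 3.12%. Of 6 G3-MB genes, MB002, D425 and HD-MB03 had an enhancer at 6, 5 and 5, with a SE at 2 in each, and UW228 had an enhancer at 2, *EYS* and *IMPG2*, and a SE at none. *OTX2*, a defining gene of G3-MB, had enhancers ranked 3, 3 and 5 in the G3-MB lines and none in UW228. Their relative input densities (input per bp over the median of all enhancers of the line) were 39.0, 53.2 and 6.84. *CRX* and *NRL*, photoreceptor lineage genes, likewise had enhancers in the G3-MB lines and none in UW228. Of 9 SHH and granule cell precursor genes, UW228 had an enhancer at 7 and a SE at none, and *ATOH1*, the granule cell precursor factor, had none in any line. HD-MB03, labelled G3-MB, had SEs at 3 of these 9, *GLI1*, *PTCH1* and *PDLIM3*. The SE assigned to *GLI1* is the same one as that of its neighbours *INHBC* and *INHBE*. All 12 mesenchymal genes had an enhancer in UW228, with 3 SEs. Their summed signal there was 290243, against 37146 in D425, 127553 in HD-MB03 and 142853 in MB002. UW228 was the highest line at 7 of the 12 (28.9% of the genes with an enhancer in any line). *COL5A1*, *PDGFRB*, *THY1*, *DCN* and *PRRX1* were highest in a G3-MB line. None of 4 astrocyte genes had a SE in any line, and of 4 microglia and macrophage genes UW228 had SEs at *CSF1R* and *PTPRC* and the other lines at none.

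Sequences at the loci are shown first, because 4 of the genes hold the SMAD palindrome, the element to which SMAD3 and SMAD4 bind tightly. The letters GTCTAGAC, which read the same on both strands, occurred at 6 positions in the called enhancers of *TGFB2*, *TGFBR2*, *SMAD3* and *SMAD7*. Each is printed 5′ to 3′ on the plus strand of GRCh38 within 120 bases, with the palindrome in capitals.
*TGFB2*, chr1:218375064-218375183: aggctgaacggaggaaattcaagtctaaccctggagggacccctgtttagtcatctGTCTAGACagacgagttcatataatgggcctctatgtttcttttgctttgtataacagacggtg
*TGFBR2*, chr3:30655846-30655965: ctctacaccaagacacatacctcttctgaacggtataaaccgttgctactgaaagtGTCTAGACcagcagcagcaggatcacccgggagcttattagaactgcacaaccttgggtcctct
*SMAD3*, chr15:67169161-67169280: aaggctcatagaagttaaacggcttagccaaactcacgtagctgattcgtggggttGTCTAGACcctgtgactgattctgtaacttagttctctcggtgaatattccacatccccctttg
*SMAD7*, chr18:48922369-48922488: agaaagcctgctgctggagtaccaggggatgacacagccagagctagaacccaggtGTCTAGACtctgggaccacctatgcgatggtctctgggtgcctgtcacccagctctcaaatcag
*SMAD7*, chr18:48952162-48952281: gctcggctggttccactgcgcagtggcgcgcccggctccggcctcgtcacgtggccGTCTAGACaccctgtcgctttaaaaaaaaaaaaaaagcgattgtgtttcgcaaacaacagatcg
*SMAD7*, chr18:48982301-48982420: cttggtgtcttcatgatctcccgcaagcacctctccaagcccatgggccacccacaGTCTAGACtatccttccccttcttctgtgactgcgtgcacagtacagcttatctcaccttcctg
The *TGFB2* palindrome lay in an intron, 29.8 kb downstream of the start site, and was inside an enhancer in all 4 lines. Those of *TGFBR2*, in an intron 49.3 kb downstream, and the first of *SMAD7*, in an intron 28.5 kb downstream, were inside enhancers of D425 and UW228 and of neither other line. The *SMAD3* palindrome, in an intron 105 kb downstream, and the *SMAD7* palindrome 31.4 kb upstream of the start site were covered in D425 alone, while the *SMAD7* palindrome 1.26 kb upstream was covered in UW228 alone. The D425 SE at *SMAD7* ended at position 48952036, short of this last element. Per kb, the palindrome occurred 0.0123, 0.0120, 0.00865 and 0.0118 times in the enhancers of the 10 genes (MB002, D425, HD-MB03 and UW228), against 0.00589, 0.00605, 0.00613 and 0.00624 times in all other enhancers. These densities at the 10 genes rest on 1, 5, 1 and 4 sites, and a match of letters is not evidence that a SMAD bound there.

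The AP-1 letters TGANTCA, read on both strands which cannot overlap the palindrome, were denser at these genes in HD-MB03 by a small margin and less dense in the other lines. They occurred 0.296, 0.335, 0.320 and 0.417 times per kb in the enhancers of the 10 genes in MB002, D425, HD-MB03 and UW228, against 0.340, 0.340, 0.312 and 0.448 per kb elsewhere. The AP-1 letters were more frequent in UW228 than in the G3-MB lines in both sets. A pair of 300-base windows are shown from stretches that lay inside an enhancer in all 4 lines, each the window of its stretch with the most AP-1 letters, with AP-1 and the SMAD element CAGACA in capitals.
*TGFB2*, chr1:218377258-218377557: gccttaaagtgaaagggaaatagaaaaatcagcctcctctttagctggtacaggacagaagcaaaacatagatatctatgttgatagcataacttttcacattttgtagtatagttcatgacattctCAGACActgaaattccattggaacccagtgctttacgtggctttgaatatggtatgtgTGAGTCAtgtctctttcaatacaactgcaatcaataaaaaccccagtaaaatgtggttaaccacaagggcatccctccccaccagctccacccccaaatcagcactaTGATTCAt
*SMAD3*, chr15:67067933-67068232: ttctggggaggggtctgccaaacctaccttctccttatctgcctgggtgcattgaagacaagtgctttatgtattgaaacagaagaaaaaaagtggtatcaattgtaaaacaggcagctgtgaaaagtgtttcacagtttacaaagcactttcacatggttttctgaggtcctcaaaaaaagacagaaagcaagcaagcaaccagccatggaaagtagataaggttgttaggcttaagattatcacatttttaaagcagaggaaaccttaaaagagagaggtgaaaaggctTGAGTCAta
Both windows were intronic, 31.9 and 4.17 kb downstream of the start sites. In the RefSeq promoters of the 10 genes, 25 windows of 300 bases on GRCh38, AP-1 letters were in 2 windows against 7.71% of 35116 promoters, CAGACA was in 5 against 16.9%, and the palindrome was in 0 against 0.202%.

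Every gene had an enhancer in D425 and UW228, and 6 of the 10 had one in all 4 lines (36.1% of all protein-coding genes). The count was 10 of 10 in D425 (73.1% of all), 10 of 10 in UW228 (62%), 7 of 10 in MB002 (70.9%) and 7 of 10 in HD-MB03 (58.4%). *INHBA* and *SMAD7* lacked an enhancer in both MB002 and HD-MB03, *ACVR2A* lacked one in MB002, and *TGFBR2* lacked one in HD-MB03. A SE was assigned to 0 of 10 in MB002 (3.36% of all genes), to *SMAD3* and *SMAD7* in D425 (4.35%), to *TGFB2* in HD-MB03 (3.12%), and to *TGFB1*, *TGFB2*, *SMAD3* and *SMAD7* in UW228 (5%). SEs in exactly D425 and UW228 were found at 2 of the 10 genes, both SMAD genes, and at 0.306% of all genes. A SE in any line was assigned to 4 of the 10 (12.4%).

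**Figure D1:**
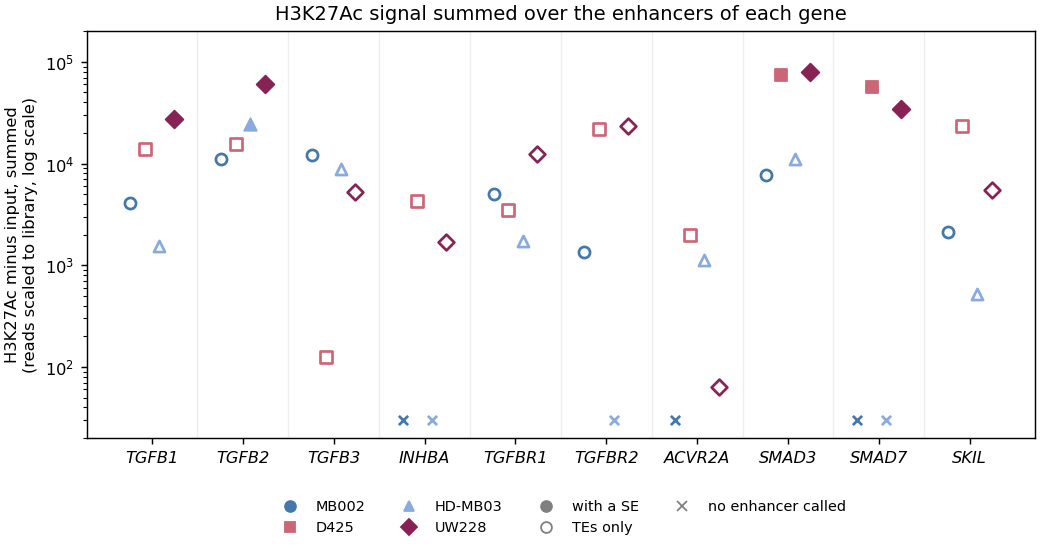
H3K27Ac signal minus input (scaled reads, log axis) summed over the enhancers of each gene, 1 point per line; filled points have a SE, open points TEs only, and crosses mark a gene with no called enhancer. D425 and UW228 lie above MB002 and HD-MB03 at *TGFB1*, *TGFBR2*, *INHBA*, *SMAD3*, *SMAD7* and *SKIL*.

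*SMAD3*, which carries the receptor signal to the nucleus, had the best-ranked enhancer of the 10 genes. Its summed signal was 74919 in D425, 78845 in UW228, 7745 in MB002 and 11022 in HD-MB03. D425 and UW228 were close to each other and far above MB002 and HD-MB03, a log2 ratio between the pairs of 3.02. In D425 the gene had 4 enhancers of 125032 bp in all, led by a SE at rank 76 of 73.3 kb and signal 58727, chr15:67009916-67083187, that ran from 53.8 kb upstream to 19.4 kb downstream of the start site. In UW228 it had 5 enhancers of 99753 bp, led by a SE at rank 208 of 61.9 kb and signal 47607, chr15:67066933-67128825, that lay wholly inside the gene. MB002 and HD-MB03 had short TEs just inside the gene, of 4.10 kb at rank 2924 and 4.59 kb at rank 1128. The mean signal over the enhancers was 1.79 and 1.88 per bp in MB002 and HD-MB03, and 0.599 and 0.790 per bp in D425 and UW228. This mean includes the gaps between stitched peaks. The SEs of D425 and UW228 each held 20 peaks, and the short TEs held 2 in MB002 and 1 in HD-MB03. The pairs of lines differed in called length at *SMAD3*, and their order by mean signal per bp was the reverse. Signal per bp over a stretch common to the lines was not measured. D425 and UW228 shared 72.6 kb, 58.0% of the D425 stretch and 72.7% of that of UW228, and 2.56 kb was common to all 4 lines. No other protein-coding gene was assigned to either SE, and the relative input density over the enhancers of *SMAD3* lay between 1.02 and 1.15.

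*SMAD7*, the inhibitory SMAD, had no enhancer in MB002 or HD-MB03, a summed signal of 56675 in D425 and 34274 in UW228. The lines with an enhancer at this negative regulator were those stated to grow in serum. The part of the medium was not tested and cannot be told apart from the lines. D425 had 2 enhancers of 108810 bp in all, a SE at rank 187 of 61.1 kb and signal 39397 (chr18:48890917-48952036) and a TE at rank 870 of 47.7 kb further upstream. UW228 had a SE at rank 458 of 40.4 kb and signal 32827 (chr18:48921705-48962097) and 2 TEs of 0.806 and 1.56 kb. Both SEs covered the start site, and the called stretches covered 100% of the gene body in D425 and 94.0% in UW228. They shared 32.7 kb, 30.1% of the D425 stretch and 76.5% of that of UW228. The relative input density over the enhancers of *SMAD7* was 0.925 in D425 and 0.495 in UW228. With a 100 kb window HD-MB03 gained a TE at rank 2910 and MB002 still had none.

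*SKIL* encodes the corepressor SnoN. Its summed signal was 23382 in D425, 5439 in UW228, 2110 in MB002 and 520 in HD-MB03, highest in D425. The main D425 enhancer, 34.2 kb over the start site (chr3:170330075-170364311), was a TE at rank 621 with a signal of 21250, under the cutoff of 26206. It became a SE after division by the enhancer's own or the local relative input density, at ranks 446 and 393. UW228 had 1 short peak of 2.203 kb (chr3:170354577-170356779) at rank 5050 that was entirely within the D425 stretch and had a mean signal of 2.47 per bp, the highest mean over the enhancers of a gene and line among the 10 genes. MB002 and HD-MB03 had only a short region about 50 kb upstream, of 2 peaks and 1 peak, at ranks 8148 and 9346, which D425 shared and UW228 lacked.

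**Figure D2:**
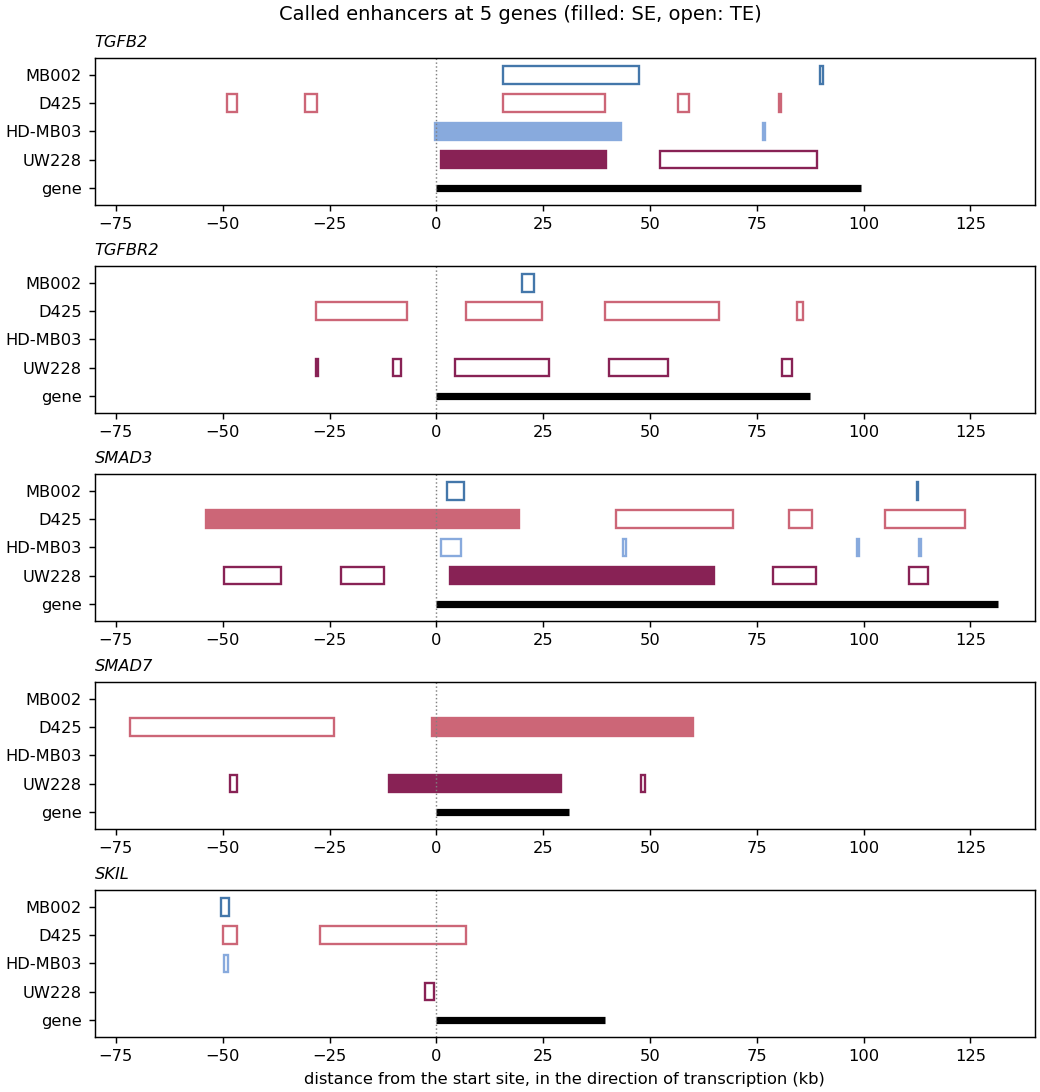
Called enhancers at *TGFB2*, *TGFBR2*, *SMAD3*, *SMAD7* and *SKIL* in each line, by distance from the start site in kb in the direction of transcription; filled boxes are SEs, open boxes TEs, and the black bar is the gene body. The boxes of D425 and UW228 overlap over long stretches at *TGFBR2*, *SMAD3* and *SMAD7*, where MB002 and HD-MB03 have short boxes or none.

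Among the receptors, *TGFBR2*, the type II receptor for TGF-beta, was also higher in D425 and UW228 than in MB002 and HD-MB03. Its summed signal was 1342 in MB002, 21879 in D425 and 23385 in UW228, with no enhancer in HD-MB03. D425 had 4 TEs of 67178 bp, best rank 1954, and UW228 had 5 TEs of 40335 bp, best rank 2454. The best-ranked TE of each overlapped the other inside the gene, and in all 33.8 kb was shared, 50.3% of the D425 stretch and 83.8% of that of UW228. The single MB002 enhancer, 2.98 kb at rank 10665, lay within this shared part. *TGFBR1*, the type I receptor, was highest in UW228 and did not separate the pairs: 3487 in D425, 12286 in UW228, 4975 in MB002 and 1741 in HD-MB03. Most of the UW228 value, 10317, came from a 29.6 kb TE upstream of the gene (chr9:99030292-99059887) called in that line only, at −73.7 to −44.2 kb from the start site (negative values upstream). Its place at the edge of the 50 kb window decided the order: with a 25 kb window or the gene body only, UW228 kept the TE of signal 1969 at rank 9680 and fell below D425 and MB002. With 100 kb, the best ranks were 462 in MB002 and 1126 in D425. In all, 4.26 kb inside the gene was common to all 4 lines. *ACVR2A*, a type II receptor for activins, had a summed signal of 63.3 in UW228, 1123 in HD-MB03 and 2004 in D425, and no enhancer in MB002. Its UW228 peak of 0.316 kb was ranked 20803 of 20875, and no stretch was shared between D425 and UW228.

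The TGF-beta ligand genes each had their own order. *TGFB1* had a summed signal of 13981 in D425, 27547 in UW228, 4107 in MB002 and 1559 in HD-MB03. The UW228 value rested on a SE of 23.3 kb at rank 698 of 753 (chr19:41307376-41330698), with a signal of 25738 just above the cutoff of 24467. It lay 23.2 to 46.5 kb downstream of the *TGFB1* start site, was closest to the start of *CCDC97*, and was also assigned to *B9D2*, *HNRNPUL1*, *TMEM91* and ENSG00000255730. With each enhancer given only to the closest start site, *TGFB1* had no SE in UW228. In D425 the signal of *TGFB1* was spread over 8 TEs, the 2 largest with 5351 over the start site and 5287 inside the gene, 26.5 to 31.3 kb downstream, at the highest mean density of the 4 lines, 1.44 per bp.

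*TGFB2* encodes the second TGF-beta ligand. Its summed signal was 15497 in D425, 60166 in UW228, 11122 in MB002 and 24694 in HD-MB03. It had a SE at rank 269 in HD-MB03 (chr1:218344964-218388482, 43.5 kb, signal 24583), one at rank 308 in UW228 (chr1:218346383-218385046, 38.7 kb, signal 40550), and TEs at ranks 1997 and 1247 in MB002 and D425. All 4 lines shared 24.0 kb of the first part of the gene, the longest stretch common to the 4 lines among the 10 genes. The relative input density over the *TGFB2* enhancers was 0.841 in D425, 1.44 in UW228, 1.297 in MB002 and 1.60 in HD-MB03. The HD-MB03 SE call moved with the input: after division by the enhancer's own relative input density it ranked 677 and was a TE, while the D425 enhancer, at rank 867, passed the redrawn cutoff. After division by the local relative input density the HD-MB03 enhancer ranked 604 and stayed a SE, and the D425 enhancer, at rank 893, was again a SE. *TGFB3* went the other way from *TGFB1*, with 127 in D425, 5302 in UW228, 12152 in MB002 and 8779 in HD-MB03, and the enhancers of D425 and UW228 shared no base. With a window of 100 kb, *TGFB3* had a SE at rank 123 in UW228.

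*INHBA* encodes the subunit that forms activin A. It had no enhancer in MB002 or HD-MB03, and a summed signal of 4312 in D425 and 1700 in UW228. Both lines had 1 TE over the start site, of 16.8 kb at rank 4395 in D425 (chr7:41690124-41706883) and of 7.06 kb at rank 10406 in UW228 (chr7:41699109-41706172), the latter wholly inside the former. The signal at *INHBA* was low in both, 0.257 and 0.241 per bp, against 0.508 and 0.702 per bp over all enhancers of these lines.

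**Figure D3:**
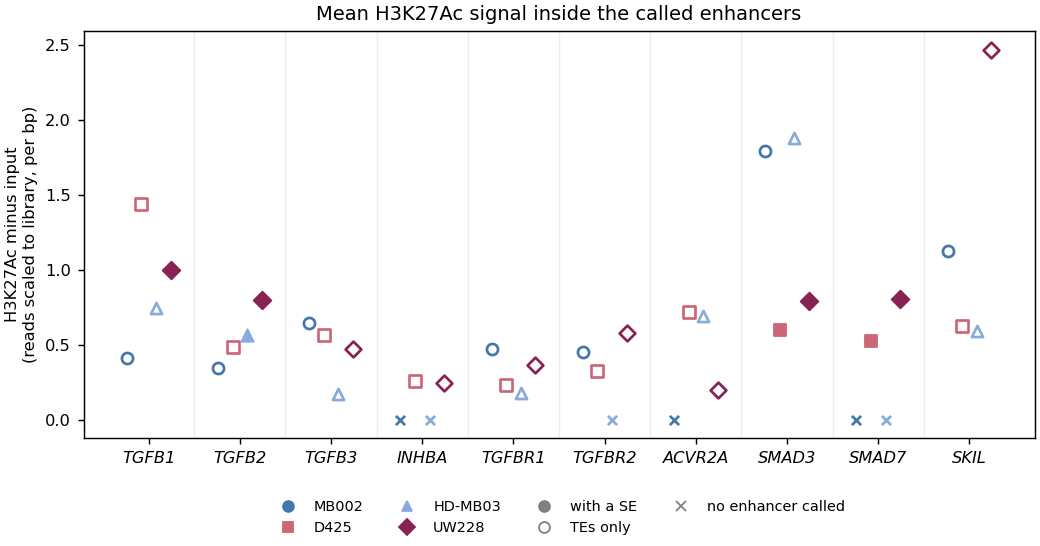
Mean H3K27Ac signal minus input per bp (scaled reads per bp) inside the called enhancers of each gene, 1 point per line; filled points have a SE, open points TEs only, and crosses mark a gene with no called enhancer. At *SMAD3*, MB002 and HD-MB03 lie at 1.79 and 1.88 above D425 and UW228 at 0.599 and 0.790, the opposite order to the summed signal. The mean includes the gaps between the peaks of a stitched region.

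Over the 10 genes together the summed signal was 216263 in D425, 249006 in UW228, 43554 in MB002 and 49437 in HD-MB03. The highest value was in UW228 at 5 genes (28.9% of the 17766 genes with an enhancer), in D425 at 4 (26.3%), in MB002 at *TGFB3* alone (28.6%) and in HD-MB03 at 0 (16.2%). UW228 and D425 were each above both other lines at 6 of 10 genes, *TGFB1*, *TGFBR2*, *INHBA*, *SMAD3*, *SMAD7* and *SKIL* (16.9%). This split of the lines was picked out after the values had been seen. It is also the split by stated medium, whose part in it was not tested and which cannot be told apart from the lines. Of the other ways to pair the lines, MB002 with HD-MB03 gave *TGFB3* (13.8%), MB002 with UW228 gave *TGFBR1* (16.1%), D425 with HD-MB03 gave *ACVR2A* (10.6%), HD-MB03 with UW228 gave *TGFB2* (8.35%), and MB002 with D425 gave 0 genes (21.6%). The median log2 ratio of D425 and UW228 to MB002 and HD-MB03 was 2.93 for the 10 genes and 0.28 for all genes with an enhancer, and it was at least 1 for 8 of the 10 (38.9%). Against the mean of the 3 G3-MB lines, the median log2 ratio of UW228 was 1.09 for the 10 genes and −0.86 for all genes. It was at least 1 for *TGFB1*, *TGFB2*, *TGFBR1*, *TGFBR2* and *SMAD3* (28.4%) and at most −1 for *ACVR2A* (48.2%). The median was 2.51 without D425, 0.57 without MB002 and 0.60 without HD-MB03. As signal per bp, with genes without an enhancer at 0, D425 and UW228 were above both others at 3 of the 10 genes, *TGFB1*, *INHBA* and *SMAD7* (16.5%).

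The enhancers themselves overlapped in the same pair. Of the 24 assigned enhancers of UW228, 19 were overlapped by an enhancer of D425, or 79.2%, against 30% of all UW228 enhancers. By contrast, 6 were overlapped by MB002 and 6 by HD-MB03, 25% each, against 24.7% and 18.7% of all. Seen from D425, 17 of 30 were overlapped by UW228, 56.7% against 24.4% of all D425 enhancers, while 11 (36.7% against 45.4%) and 9 (30% against 29.9%) were overlapped by MB002 and HD-MB03. The few enhancers of MB002 and HD-MB03 were mostly also overlapped by D425, 10 of 11 in MB002 (45% of all MB002 enhancers) and 10 of 13 in HD-MB03 (51.2%). UW228 overlapped 6 of these 11 (20.3%) and 8 of these 13 (26.2%), while HD-MB03 overlapped 7 of the 11 (35.2%) and MB002 7 of the 13 (61.2%). Any G3-MB line overlapped 20 of the 24 in UW228 (42.5% of all). Long stitched regions overlap others more readily than short ones. The enhancers of these genes included regions of 73.3 kb in D425 and 61.9 kb in UW228. The median length of all enhancers was 1287 bp in D425 and 2264 bp in UW228.

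The 42 other genes of the pathway, taken as 1 list, showed this split near the background. D425 and UW228 were each above the other lines at 9 of 42, or 21.4%, near the 16.9% of all genes, and the median log2 ratio between the pairs was 0.20. By role, the count was 3 of 17 ligands and binding proteins, 1 of 8 receptors, 1 of 6 SMADs and partners, 2 of 4 SMAD turnover genes (*SMURF1* and *NEDD4L*, which encode ubiquitin ligases) and 3 of 8 target genes, with *LTBP2* both a binding protein and a target. Of these 42 genes, 5 had a SE in D425 (11.9% against 4.35% of all genes) and 3 in UW228 (7.14% against 5%). MB002 had a SE at 4 (9.52% against 3.36%) and HD-MB03 at 6 (14.3% against 3.12%). A SE in any line was assigned to 11 of the 42 (12.4% of all genes). Among ligands and their binding proteins, *INHA*, the subunit of inhibins, had a summed signal of 123205 in MB002 with a SE at rank 22, 37451 in HD-MB03 with a SE at rank 119, and 26023 in D425, and no enhancer in UW228. *LTBP3*, which tethers latent TGF-beta to the matrix, was highest in UW228, with SEs at rank 36 in UW228 (103570) and rank 268 in MB002 (40608), against 977 in D425 and 15394 in HD-MB03. *INHBC* and *INHBE*, neighbours that share enhancers, had a SE at rank 203 in HD-MB03. The co-receptor gene *TGFBR3* had its SE in MB002, at rank 295. The corepressor genes *SKI* and *TGIF1* had SEs in D425 and HD-MB03, with *SKI* at ranks 275 and 218 and *TGIF1* at ranks 201 and 78.

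Of 8 target genes of the pathway, 3, among them *CDKN2B* and *LTBP2*, had D425 and UW228 above both others, against the 16.9% of all genes. The median log2 ratio between the pairs was 3.47 over the 8, and several of the high ratios came from UW228 alone. *PMEPA1*, a feedback inhibitor gene, had 23594 in UW228 and no enhancer in the G3-MB lines, and *SNAI2*, a repressor gene of epithelial-mesenchymal transition, had 14605 in UW228, 533 in HD-MB03 and no enhancer in D425 or MB002. *CDKN2B*, a cell cycle inhibitor gene, had a SE at rank 376 in UW228 with 51183, against 86.3 in D425 and no enhancer in the others. *TGFBI*, a matrix protein gene, had SEs in MB002, D425 and UW228 at ranks 175, 85 and 158 and a TE at rank 1770 in HD-MB03. *JUNB*, an AP-1 subunit gene, had SEs in D425 and HD-MB03, at ranks 176 and 161, and was lowest in UW228 at 10977.

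**Figure D4:**
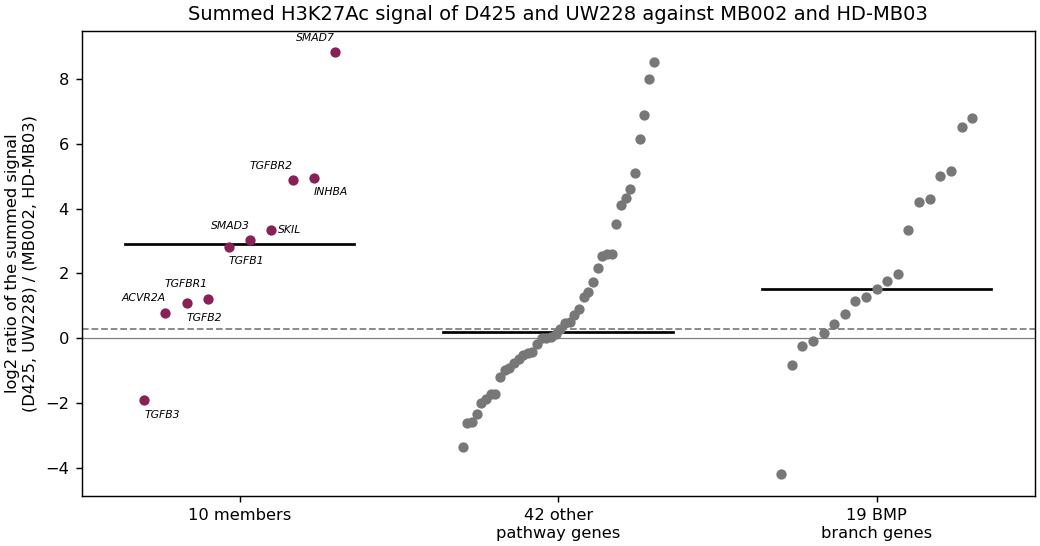
Log2 ratio of the summed signal in D425 and UW228 to that in MB002 and HD-MB03, with 100 added to each mean, for the 10 genes (named), 42 other genes of the pathway and 19 genes of the BMP branch; each point is a gene, bars are medians and the dashed line is the median of all 17766 genes with an enhancer. The bars stand at 2.93, 0.20 and 1.53 and the dashed line at 0.28.

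The BMP branch, which uses other ligands, receptors and SMADs, had a median between those of the 10 genes and the other pathway genes, and a count near the latter. D425 and UW228 were above both others at 4 of 19 genes, or 21.1%, with a median log2 ratio of 1.53. SEs were assigned to 0, 6, 1 and 3 of the 19 in MB002, D425, HD-MB03 and UW228 (3.36%, 4.35%, 3.12% and 5% of all genes), at *BMP2*, *SMAD5*, *SMAD9*, *ID1*, *ID3*, *SMAD6* and *GREM1*. *SMAD6*, the inhibitory SMAD of this branch and a neighbour of *SMAD3* on chromosome 15, had SEs in D425 and UW228 alone, at ranks 277 and 747 (the latter of 753 SEs, just above the cutoff), with 56699 and 24636 against 2172 in MB002 and 176 in HD-MB03.

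The 5 genes on other chromosomes whose summed signal was most like that of *SMAD3*, by the distance of log2 values over the 4 lines, were *CEACAM16*, *BCL3*, *CBLC*, *PALM2AKAP2* and *BCAR1*. The first 3 are neighbours on chromosome 19 that share enhancers, at distances of 0.701, 0.856 and 0.967, and the others stood at 1.05 and 1.46. With 4 lines, many genes can show such a likeness.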

How the data were processed

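H3K27Ac ChIP-seq and input libraries of 4 lines were analysed, 8 libraries in all. The authors aligned reads to GRCh38 with Bowtie2 2.3.0, converted them with SAMtools 1.9, removed multi-mapping and duplicate reads, called peaks over input with MACS2 2.2.6, left out peaks near promoters by their methods (some deposited regions, single peaks included, still lie over start sites), and stitched and ranked regions with ROSE. The deposited signal columns give reads per bp, scaled to the mapped reads of the library, times the length of the region, and the deposited score is the rank of the region, beside the SE call. No read totals were in the files, so depth is unknown and no counting interval is given. The header of the UW228 table names another ROSE output folder and a later date than the other 3 tables. The authors' columns of peak number and SE call were used as they stand.

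Signal was H3K27Ac minus input, set to 0 where negative. Coordinates are those of the files. Genes came from GENCODE 44, and an enhancer could be assigned to several genes. Ratios used 100 added to each value. Relative input density is the input signal per bp of the enhancers divided by the median input signal per bp of all enhancers of the line. The scripts were tested on simulated data and run in Python 3.11.15 with numpy 2.4.6, pandas 2.3.3 and matplotlib 3.10.9. The text names all 10 genes, the other pathway and BMP genes with a SE in at least 1 line and, with no values, those counted for the split of the lines. *PMEPA1* and *SNAI2* were named after their values were seen. A pathway gene that was counted is not reported here by name. The 10 genes and the lists were chosen with earlier results of these data known, and the split of the lines by D425 and UW228 was added after the values were seen. Sequences were read from GRCh38, and promoters from RefSeq. Alternatives covered the input correction, the SE cutoff, the window, the assignment, the scale and leaving out each line.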

Additional observations from a re-analysis of the deposited data

How the results depend on the processing

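Of 545 values computed under an alternative, 500 kept their call or, for counts and ratios, stayed within 1.5 times the value reported, 45 moved and 0 changed sign, and 373 of 398 best ranks kept their SE or TE call. *TGFB1* in UW228 had no enhancer at all when each was given to the closest start site. The number of genes with a SE in D425, reported as 2, was 4 after division by the enhancer's own or by the local relative input density, 1 by mean signal per bp, and 0 without enhancers over a start site. In HD-MB03, reported as 1, it was 0 after division by the enhancer's own relative input density, with the 200 highest ranked enhancers as SEs, by mean signal per bp and without enhancers over a start site. In UW228, reported as 4, these last 3 settings gave 0, 1 and 2. The number of genes highest in UW228, reported as 5, was 3 with a window of 25 kb, with the gene body only, as a share of the summed signal of the line and by best rank, and 5 to 8 with 1 G3-MB line left out. The median log2 ratio of UW228 to the G3-MB lines, reported as 1.09, was 0.45 by mean signal per bp, 0.54 with a window of 25 kb, 0.57 with the closest start site only, and 0.57 to 2.51 with 1 G3-MB line left out. The number of genes with D425 and UW228 above both others, reported as 6, was 3 by mean signal per bp. Of the 24 enhancers of UW228, 20 were shared with a G3-MB line, and 8 to 20 with 1 G3-MB line left out. The highest of these ratios and counts of genes, and the lowest count of shared enhancers, were those without D425. The causes of these moves were not tested. No paired analysis was possible because each line had 1 library of each kind and no result came from a test. With no replicates and unknown depth, the error of every value is unknown, and weak enhancers could be missed in one line and called in another.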
